A study of Homo sapiens with 89 samples.

Results

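APOE and 9 further genes of the liver X receptor (LXR) lipid pathway were followed through polyadenylated RNA sequencing of 2 human neuroblastoma cell lines. The 10 genes are APOE, APOC1, ABCA1, ABCG1, MYLIP, LPCAT3, SREBF1, SCD, NR1H2 and NR1H3, found by symbol among 57905 gene rows, and all 10 have a row in both count tables. They were listed by name around APOE, which was picked because its level was far higher after depletion of EXOSC10, so all values from that contrast are given as a description. IMR-32, an adrenergic neuroblastoma line in which MYCN is amplified, held a doxycycline-inducible shRNA to EXOSC10, an exonuclease subunit of the nuclear RNA exosome. Its 3 control libraries had no doxycycline and its 3 depleted libraries had 1 µg/ml. SHEP, a mesenchymal neuroblastoma line, carried doxycycline-inducible MYCN, either wild type (WT) or 3A, which the labels describe as a triple mutant that binds RNA poorly. Its 9 libraries are 3 labelled no MYCN, without doxycycline, 3 labelled MYCN WT and 3 labelled MYCN 3A, each of the latter with 1 µg/ml. Against the controls without doxycycline, the drug and the induced construct cannot be told apart, while the WT and 3A libraries had the same dose. Neither clonality of the lines nor separate culture of the replicates is stated in the labels, and p-values therefore reflect the spread between these libraries alone, which may be technical.

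LXR is a nuclear receptor that binds oxysterols, oxidised forms of cholesterol. NR1H3 encodes LXR alpha and NR1H2 encodes LXR beta. Paired with a retinoid X receptor, LXR sits on DNA at a repeat of the half-site AGGTCA with a spacer between the copies, a motif named DR4, and switches on genes that carry cholesterol out of the cell. ABCA1 and ABCG1 are the membrane pumps that export cholesterol and phospholipid, and APOE and APOC1 are apolipoproteins that carry lipid in particles outside the cell. APOE comes mostly from liver, macrophages and, in the brain, astrocytes. MYLIP is a ubiquitin ligase that marks the LDL receptor for degradation, and LPCAT3 puts polyunsaturated chains into membrane phospholipids. SREBF1 encodes SREBP1, the transcription factor that turns on fatty acid synthesis, and SCD is the desaturase that makes monounsaturated fatty acids.

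Libraries held 16394148 to 26193478 counts in IMR-32 and 11638859 to 15353505 in SHEP. Levels are CPM (counts divided by library size, with TMM scaling) as mean ± SD over 3 libraries. Differences are on the log2 scale, with an SE, from the edgeR fit. EXOSC10 went from 68.6 ± 5.48 to 47.3 ± 1.54 CPM on depletion in IMR-32. In the same contrast MYCN went from 1097 ± 15.3 to 599 ± 5.47 CPM (log2 fold change -0.87, SE 0.04). The part of MYCN in the IMR-32 differences below was not tested. MYCN was counted at 4, 0 and 0 reads in the SHEP libraries labelled no MYCN, at 2, 0 and 0 in those labelled MYCN WT and at 10, 0 and 0 in those labelled MYCN 3A. The MYCN gene row therefore does not show either construct, whether reads of the constructs could count for that row was not tested, and every SHEP direction below is a difference between libraries as labelled. Adrenergic markers summed to 4049 to 4359 CPM in the IMR-32 controls and 2658 to 2750 CPM after depletion, against 155 to 198 CPM in SHEP. Mesenchymal markers summed to 524 to 585 CPM in IMR-32. In SHEP they summed to 5662 to 5962 CPM without MYCN, 7082 to 7304 CPM with the WT label and 5372 to 5712 CPM with 3A. VIM made up most of these sums, with means of 4150, 5329 and 4372 CPM in the same order. Both lines thus carried the markers of their labels, and MEOX2, a mesenchymal marker, was at 0 counts in all 5 groups.

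The RefSeq promoter table (GRCh38.p14) matched 9 of the 10 genes, at 14 start sites, and the 250 bases before each start were searched on both strands. Of the 9, only ABCA1 held a DR4 match (AGGTCA, any 4 bases, AGGTCA) with at most 2 mismatches among its 12 fixed letters, on the strand opposite to the gene at bases -69 to -54 from the start. That is a match held by 2.04% of 34788 promoters. APOC1 held one with 3 mismatches, a level reached by 15.9% of promoters. ABCA1 was also the only one of the 9 with the E-box CACGTG, the motif that MYC family proteins bind, which 6.31% of promoters hold. The GC box GGGCGG was found in at least 1 promoter of all 9 genes, but APOE and NR1H3 lacked it at some of their several start sites. Counted singly, 42.6% of all promoters hold it. The sterol regulatory element TCACCCCAC was found in none of the 9 and in 0.356% of all promoters. Shown here are the 250 bases before the start of APOE and ABCA1, whose RNA differed most on EXOSC10 depletion, and of LPCAT3 and SREBF1, which changed in SHEP. Capitals mark the GC boxes and, in ABCA1, the E-box followed by the DR4 match, and no marked motifs overlap. The APOE window is its first listed start, chr19:44905546-44905795 on the plus strand. The other 3 lie on minus strands, at chr9:104928156-104928405, chr12:7018477-7018726 and chr17:17836987-17837236 in the order shown.
APOE: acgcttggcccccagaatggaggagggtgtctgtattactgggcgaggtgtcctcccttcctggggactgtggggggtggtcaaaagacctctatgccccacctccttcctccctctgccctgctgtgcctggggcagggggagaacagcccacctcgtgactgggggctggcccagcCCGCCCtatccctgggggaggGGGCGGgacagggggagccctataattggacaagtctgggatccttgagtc
ABCA1: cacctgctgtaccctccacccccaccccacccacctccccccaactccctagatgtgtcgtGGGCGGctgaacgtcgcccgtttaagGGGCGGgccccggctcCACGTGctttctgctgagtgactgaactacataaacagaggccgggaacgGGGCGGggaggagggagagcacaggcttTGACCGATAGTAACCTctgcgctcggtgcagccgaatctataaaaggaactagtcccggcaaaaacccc
LPCAT3: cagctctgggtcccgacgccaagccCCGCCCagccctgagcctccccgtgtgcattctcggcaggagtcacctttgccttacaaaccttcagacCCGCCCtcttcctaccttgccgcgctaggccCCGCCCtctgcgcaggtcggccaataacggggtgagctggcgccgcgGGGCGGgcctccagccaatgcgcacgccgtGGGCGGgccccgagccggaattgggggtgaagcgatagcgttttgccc
SREBF1: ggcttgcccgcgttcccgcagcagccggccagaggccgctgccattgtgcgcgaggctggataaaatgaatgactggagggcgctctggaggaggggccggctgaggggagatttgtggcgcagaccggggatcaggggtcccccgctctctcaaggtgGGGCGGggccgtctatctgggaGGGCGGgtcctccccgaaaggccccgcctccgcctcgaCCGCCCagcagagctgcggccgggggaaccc
GC boxes number 2 in the APOE window, 3 in ABCA1, 5 in LPCAT3 and 3 in SREBF1. A match describes letters only, and no binding of LXR was measured in these tables. Sites outside these windows, or at starts that are not listed, were not searched, so their absence is not shown.

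Scaled by exon length, SCD was the highest of the 10 genes in all 5 groups. In IMR-32 controls it reached 411 ± 20.7 CPM per kb, followed by SREBF1 at 44.8 ± 1.27 and NR1H2 at 7.10 ± 0.708. APOE ranked 4 at 5.81 ± 0.162 CPM per kb, and its libraries overlapped those of LPCAT3 at 5.68 ± 0.76. After EXOSC10 depletion APOE ranked 3 at 39.9 ± 1.31 CPM per kb, apart from SREBF1 above it at 48.9 ± 1.74 and from LPCAT3 below it at 8.14 ± 0.357. In SHEP, APOE stood at 0.535 ± 0.242 CPM per kb without MYCN and overlapped APOC1 at 0.355 ± 0.218. The receptors differed in rank between the lines. NR1H2 ranked 2 in SHEP without MYCN at 17.4 ± 0.631 CPM per kb, and NR1H3 ranked 5 at 1.38 ± 0.367, overlapping LPCAT3. ABCA1 and ABCG1 were the lowest there, both under 0.005 CPM per kb, while ABCG1 reached 2.99 ± 0.489 CPM per kb in IMR-32 controls. The lines were counted and scaled in separate tables, so these levels are set side by side without a test.

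**Figure D1:**
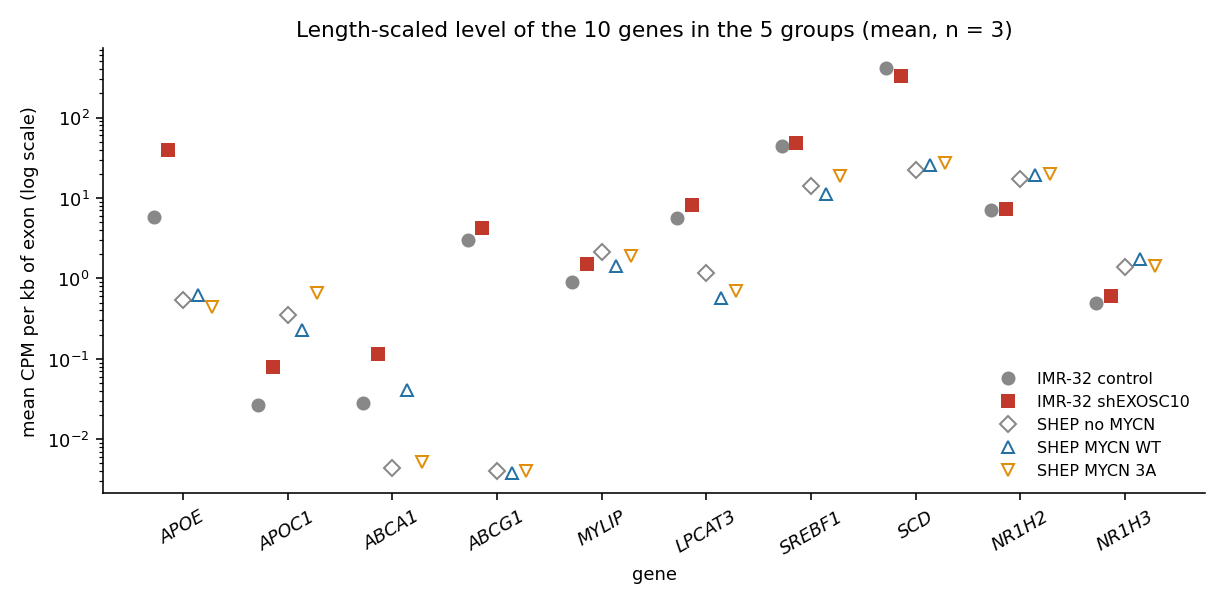
Mean CPM per kb of exon (log axis) of the 10 genes in the 5 groups, 3 libraries each, with filled symbols for IMR-32 and open symbols for SHEP. SCD is highest in every group, APOE reaches 39.9 CPM per kb after EXOSC10 depletion, and ABCG1 is under 0.005 CPM per kb in all SHEP groups.

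The IMR-32 libraries address how transcript levels change when the exosome nuclease is depleted. APOE (ENSG00000130203, chromosome 19, 45409011 to 45412650, plus strand, hg19) stood at 12.5, 12.5 and 13.1 CPM in the 3 controls and at 90.6, 86.6 and 85.0 CPM in the 3 depleted libraries. These are 258, 255 and 276 counts against 1848, 1432 and 2241. Every depleted library lay far above every control, a 6.86-fold difference (log2 fold change 2.78, SE 0.09). In bulk RNA, more cells that express a gene and more RNA per cell cannot be told apart. APOC1, which starts 8.49 kb downstream of APOE's start on the same strand, held 2, 0 and 0 counts in the controls and 2, 2 and 2 in the depleted libraries. That is too few to test. A count of 0 allows up to 0.146 CPM in either control that had none, if counts are independent. Where both ends of a molecule were counted, it allows more.

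The cholesterol pumps were higher too. ABCG1 (chromosome 21, 43619799 to 43717354) stood at 16.7, 16.4 and 21.8 CPM in the controls and at 27.2, 26.0 and 23.9 CPM after depletion, without overlap (log2 fold change 0.49, SE 0.11). ABCA1 (chromosome 9, 107543283 to 107690518) held 12, 6 and 2 counts in the controls and 20, 30 and 30 after depletion, or 0.324 ± 0.245 against 1.31 ± 0.443 CPM (log2 fold change 1.98, SE 0.59). It reached the count filter in 1 of 3 controls and in all 3 depleted libraries, so it entered the fit through the group in which it was high, and without control replicate 1 its log2 fold change was 2.7. LPCAT3 (chromosome 12, 7085348 to 7125814) went from 29.8, 27.8 and 22.8 CPM to 39.4, 36.5 and 39.5 CPM (0.52, SE 0.10). Its exons share 23.8% of their bases with ENSG00000272201 and 9.19% with EMG1, both on the opposite strand. Whether IMR-32 reads were counted by strand is not given. MYLIP (chromosome 6, 16129356 to 16148479) went from 2.04, 2.84 and 3.38 CPM to 3.73, 5.02 and 5.16 CPM (0.75, SE 0.26), and the lowest depleted library lay just above the highest control.

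The 2 lipogenic genes had differences of opposite sign. SREBF1 (chromosome 17, 17713713 to 17740325) was at 371, 351 and 357 CPM in the controls and 391, 380.3 and 408 CPM after depletion, a log2 fold change of 0.13 (SE 0.04). SCD (chromosome 10, 102106881 to 102124591) was at 2193, 2100.4 and 2321 CPM and then at 1765, 1751 and 1804 CPM, a log2 fold change of -0.31 (SE 0.04), with every depleted library below every control. Exons of SCD share 36.8% of their bases with ENSG00000256545 on the same strand, and those of SREBF1 share 6.92% with RAI1 on the opposite strand. How reads over 2 genes were counted in IMR-32 is not given. The receptors themselves stayed within their spread, NR1H2 (chromosome 19, 50832910 to 50886239) at 26.7 ± 2.66 against 27.5 ± 2.28 CPM and NR1H3 (chromosome 11, 47269851 to 47290396) at 2.12 ± 0.967 against 2.65 ± 0.693 CPM. Their log2 fold changes were 0.05 (95% interval -0.15 to 0.25) and 0.31 (-0.34 to 0.96).

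Of the 9 members that could be fitted, 6 were called higher and 1 lower at an adjusted p under 0.05, where 27.1% of all 17103 genes were called, 13.5% higher and 13.7% lower. Leaving out 1 library left 5 higher without control replicate 1 or 2 or depleted replicate 1, and 4 without any of the other 3 libraries. SREBF1 was called in 6 of 10 alternatives, MYLIP in 7 and ABCA1 in 8, and the other 4 called members in all 10. The median log2 fold change of the 9 was 0.49 and that of all genes -0.001. The libraries of the 2 groups did not overlap for the same number, 6 higher and 1 lower, beside 38.4% of all genes, 18.7% higher and 19.7% lower. ABCA1 is among the called members although it entered the fit through the group in which it was high. Since the members were gathered around a gene picked from this contrast, nothing is read from these counts. The same holds for the calls and for how they held over the alternatives.

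**Figure D2:**
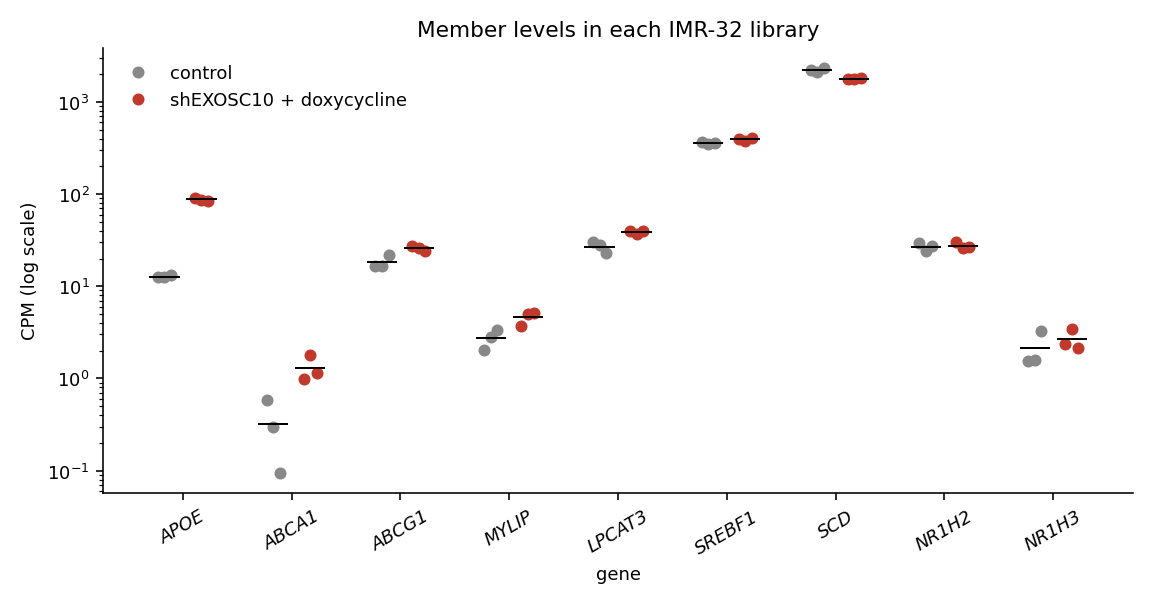
CPM (log axis) of 9 members in each IMR-32 library, grey for controls and red for EXOSC10 depletion, with the mean of 3 as a line. APOC1 is left out because 2 controls held 0 counts. APOE moves from 12.5 to 13.1 CPM up to 85.0 to 90.6 CPM, SCD is lower in all 3 depleted libraries, and NR1H2 and NR1H3 overlap.

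Genes of the pathway outside the 10 did not share one direction on depletion. Beside the IMR-32 lists below, 27.1% of all genes were called, 13.5% higher and 13.7% lower. Of 9 tested other LXR targets, PLTP, the phospholipid transfer protein, rose (0.15, SE 0.06) and TTC39B, a scaffold that lowers LXR protein, fell (-0.59, SE 0.16), with 7 not called and a median of -0.09. The call of PLTP held in 4 of 10 alternatives, and was lost without the count filter and on leaving out control replicate 2 or 3 or any depleted library (edgeR adjusted p = 0.0667 to 0.137). Among 12 lipogenic SREBP1 targets 3 rose and 4 fell, with 1 rise without control replicate 2 or depleted replicate 2. FADS1, a fatty acid desaturase, changed by -0.46 (SE 0.04), FASN, the fatty acid synthase, by -0.25 (SE 0.04) and SCD5, the second human stearoyl-CoA desaturase, by 0.66 (SE 0.08). Of 10 genes of the SREBP machinery, INSIG1, which holds SREBP in the endoplasmic reticulum and is itself an SREBP target, fell from 167 ± 5.15 to 89.3 ± 1.10 CPM (-0.90, SE 0.06), and RNF139 (0.34, SE 0.08) and SCAP (0.16, SE 0.05), the sterol-sensing escort of SREBP, rose.

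Receptors that bind APOE moved both ways. Of 10 tested, 5 rose and 2 fell, or 4 fell with the replicate block. SDC1, a heparan sulfate proteoglycan, went from 15.1 ± 1.17 to 42.1 ± 1.39 CPM (1.48, SE 0.10), while VLDLR (-0.40, SE 0.06) and LRP8 (-0.35, SE 0.06), the 2 receptors that also bind reelin, fell. Among 8 tested other apolipoproteins and lipid exporters 2 rose and 2 fell, with ABCA3, a phospholipid pump of lamellar bodies, at -0.68 (SE 0.05), ABCA5 at -0.42 (SE 0.05) and ABCA7 at 0.39 (SE 0.07). Of 15 LXR partners and coregulators 2 rose and 3 fell, among them the corepressor subunit TBL1X (-0.47, SE 0.08) and the coactivators NCOA3 (0.35, SE 0.09) and NCOA1 (0.41, SE 0.11). NCOA3 was not called without depleted replicate 3 (edgeR adjusted p = 0.0533), which left 1 rise in the list. The rises numbered 5 with library totals and 4 with the replicate block or without control replicate 3. All 3 RXR genes are counted in that list, and both LXR genes among the members.

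Cell types that are known for APOE were followed by their markers. Of 12 macrophage markers 2 were tested and 0 were called in edgeR, their sum was 3.24 to 4.37 CPM in controls and 3.19 to 4.10 CPM after depletion, and TYROBP, AIF1, PTPRC, C1QA and C1QB were at 0 in both groups. Of 6 tested astrocyte markers 2 fell, the list's sum was 224 to 258 and then 158 to 167 CPM, and GFAP was at 0 in the controls. Hepatocyte markers summed to 2.47 to 4.23 and then 3.99 to 6.03 CPM, with 1 of 3 tested called higher. Schwann cell markers summed to 44.0 to 49.1 CPM in controls and 235 to 242 CPM after depletion, with 3 of 5 tested called higher and 1 lower. NGFR made up 198 CPM of that sum, and SOX10 and CDH19 were at 0 in both groups. Adrenergic markers fell in 9 and rose in 1 of 12 cases. The part of these shifts in the APOE difference was not tested.

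In SHEP, libraries labelled MYCN WT, with doxycycline, were compared with those labelled no MYCN, without it. LPCAT3 and SREBF1 fell, and 0 of the 7 tested members rose in edgeR, which is 2 of 7 called where 22.2% of 14923 genes were called, 10.9% higher and 11.3% lower. These 2 and MYLIP lay below the controls without overlap, and SCD and NR1H2 above, where 37.5% of genes did not overlap, 18.5% higher and 19.0% lower. LPCAT3 stood at 4.71, 6.42 and 5.62 CPM without MYCN and at 2.99, 2.44 and 2.68 CPM in the libraries labelled WT. All WT libraries lay below all controls (log2 fold change -1.04, SE 0.26, edgeR adjusted p = 0.00498), and the call held in all 11 alternatives. SREBF1 went from 100.1, 114 and 127 CPM to 92.4, 92.6 and 84.5 CPM, again without overlap (-0.34, SE 0.10, edgeR adjusted p = 0.0139). That call was lost without no MYCN replicate 2 (adjusted p = 0.0502), no MYCN replicate 3 (0.112) or WT replicate 2 (0.0505). LPCAT3 shares exon bases with EMG1 and ENSG00000272201, and SREBF1 with RAI1, all on the opposite strand, and the header of the SHEP table gives counting by strand.

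The other members did not pass in this comparison. MYLIP was at 6.32, 6.87 and 6.05 CPM and then at 4.15, 5.30 and 3.67 CPM. Every library labelled WT lay below every control, and the log2 fold change was -0.55 (95% interval -0.99 to -0.12, edgeR adjusted p = 0.0797). SCD was at 127, 122 and 108 CPM and then 146, 138 and 129 CPM, a log2 fold change of 0.21 (0.04 to 0.38, edgeR adjusted p = 0.0942). With the replicate number as a block, SCD was called (adjusted p = 0.0185). APOE held only 18, 9 and 24 counts without MYCN and 14, 20 and 24 with the WT label, or 1.17 ± 0.530 against 1.36 ± 0.377 CPM. The groups overlapped, with a log2 fold change of 0.21 and a 95% interval of -0.73 to 1.14 (edgeR adjusted p = 0.803). At this depth, a fall or a rise within that interval is compatible with the counts. The receptors went to 72.3 ± 2.88 from 65.2 ± 2.37 CPM for NR1H2 (edgeR adjusted p = 0.258) and to 7.50 ± 1.39 from 6.01 ± 1.59 CPM for NR1H3 (edgeR adjusted p = 0.41).

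The pumps and APOC1 were too low to test in SHEP. ABCA1 held 0, 2 and 0 counts without MYCN, 10, 4 and 6 with the WT label and 0, 2 and 0 with the 3A label. All 3 libraries labelled WT were above all others, but without the count filter the edgeR adjusted p was 0.234 against no MYCN and 0.242 against 3A. ABCG1 had 1 count in each group of 3 libraries, and a count of 0 allows up to 0.195 to 0.258 CPM in a SHEP library, for counting error only. That bound takes counts as independent, and it is too low where both ends of a molecule were counted. APOC1 held 8, 9 and 2 counts without MYCN, 0, 6 and 6 with WT and 12, 14 and 4 with 3A.

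Libraries labelled MYCN 3A were compared with the same no MYCN controls. SREBF1 and SCD rose and LPCAT3 fell, 3 of 7 tested members where 25.5% of genes were called, 12.7% higher and 12.8% lower. Libraries did not overlap for 3 members higher and 1 lower, where this held for 41.3% of genes, 19.3% higher and 22.0% lower. SREBF1 stood at 134, 163 and 153 CPM, above every control (log2 fold change 0.40, SE 0.10, edgeR adjusted p = 0.00452), and was called in all 11 alternatives. LPCAT3 stood at 3.73, 3.69 and 2.52 CPM, below every control (-0.75, SE 0.26, edgeR adjusted p = 0.0342). SCD stood at 151, 149 and 133 CPM, also above every control (0.28, SE 0.09, edgeR adjusted p = 0.0236). The last 2 calls were less stable. LPCAT3 was called in 5 of 11 alternatives. It was lost in DESeq2, with no count filter, and on leaving out control replicate 2 or 3 or 3A replicate 2 or 3 (adjusted p = 0.0530 to 0.146). SCD was called in 6 of 11. Its call ended with library totals as the scale (0.153), and on leaving out control replicate 2 or 3 or 3A replicate 1 or 2 (0.0575 to 0.131). APOE was at 0.977 ± 0.335 CPM (-0.27, 95% interval -1.26 to 0.71), MYLIP at 5.77 ± 1.14 CPM (-0.15, -0.58 to 0.28), NR1H2 at 73.7 ± 3.46 CPM and NR1H3 at 6.16 ± 2.14 CPM, with edgeR adjusted p of 0.736, 0.668, 0.156 and 0.93.

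Set against each other, the 2 MYCN forms differed in 1 of 7 tested members where 30.3% of genes were called, 15.8% higher with WT and 14.5% lower. The same member was the only 1 of 7 whose libraries did not overlap, where this held for 40.4% of genes, 20.5% higher and 19.9% lower. SREBF1 was at 89.9 ± 4.64 CPM in libraries labelled WT and at 150.0 ± 15.2 CPM in those labelled 3A, with 113.8 ± 13.5 CPM without MYCN. No SREBF1 value of one group fell within the range of another, with WT lowest and 3A highest. The difference between the forms was -0.74 (SE 0.10, edgeR adjusted p = 8.5e-06) and was called in all 11 alternatives. For LPCAT3, which was lower with both labels, the forms differed by -0.29 (95% interval -0.82 to 0.24, edgeR adjusted p = 0.444). For SCD the difference was -0.07 (-0.24 to 0.10, adjusted p = 0.588 in edgeR). APOE differed by 0.48 (-0.49 to 1.45), MYLIP by -0.40 (-0.85 to 0.04), NR1H3 by 0.27 (-0.22 to 0.77) and NR1H2 by -0.03 (-0.20 to 0.15), none of them called. EXOSC10 itself was lower with the 3A label, at 61.5 ± 4.02 CPM, than with WT at 93.2 ± 11.6 CPM (edgeR adjusted p = 0.00025) or without MYCN at 81.1 ± 10.5 CPM (edgeR adjusted p = 0.00954, but 0.0787 without no MYCN replicate 1 and 0.0565 without 3A replicate 2). Of 11 tested mesenchymal markers 7 were higher and 1 lower with WT than with 3A, 4 rose and 2 fell with WT against no MYCN, and 1 rose and 5 fell with 3A. The part of EXOSC10 and of these markers in the member and pathway differences in SHEP was not tested.

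**Figure D3:**
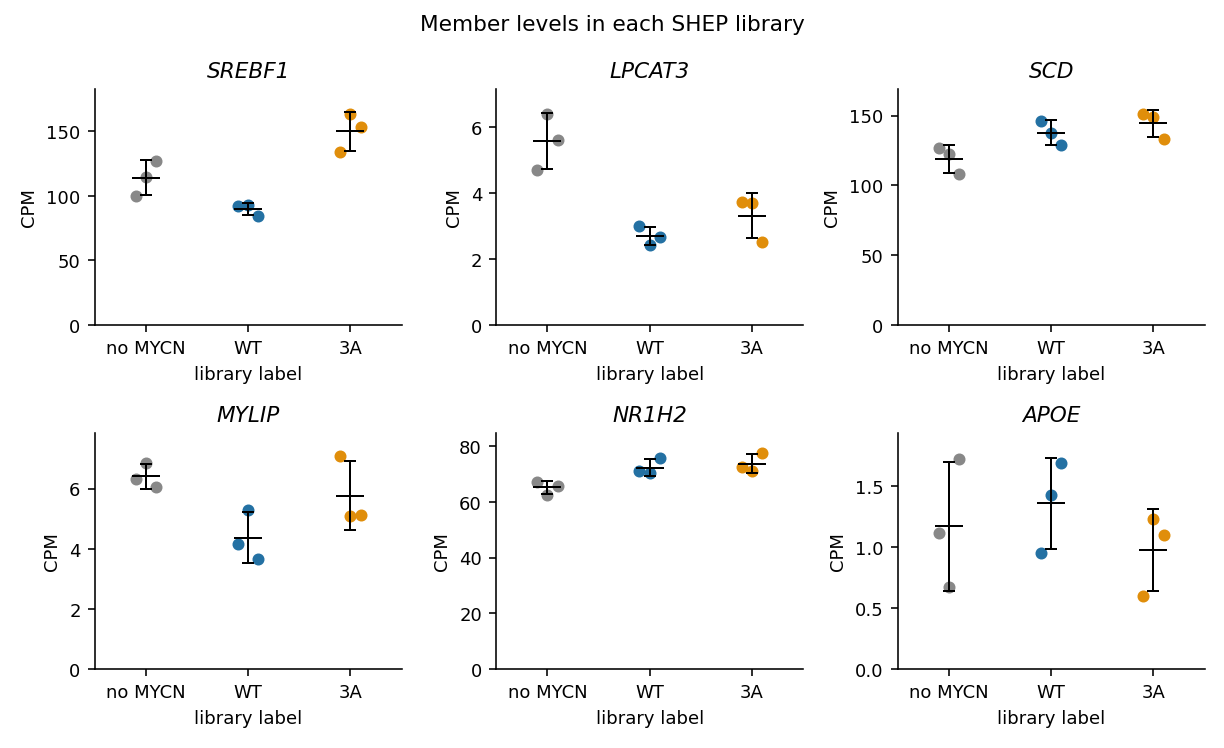
CPM of 6 members in each of 9 SHEP libraries by label, with mean and SD over 3 as black marks and axes that start at 0. SREBF1 is lowest with the WT label and highest with 3A, LPCAT3 is lower with both than without MYCN, and APOE stays at 0.597 to 1.73 CPM with all groups overlapping.

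**Figure D4:**
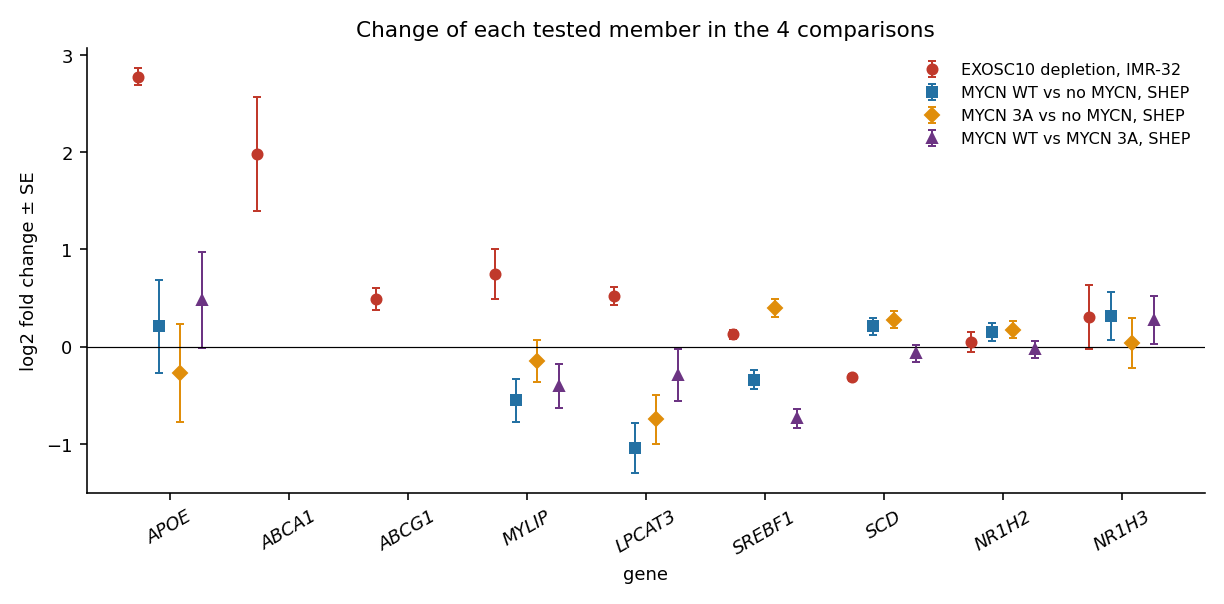
Log2 fold change ± SE of each member that could be fitted, by comparison. APOE stands at 2.78 on EXOSC10 depletion and between -0.27 and 0.48 in SHEP, and SREBF1 has opposite signs against no MYCN with the WT and the 3A label. The WT and 3A comparisons against no MYCN share their controls.

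Beside the SHEP lists below, 10.9% of all genes were called higher and 11.3% lower with WT, and 12.7% and 12.8% with 3A. Between the forms, 15.8% were called higher with WT and 14.5% lower. Of 6 other LXR targets tested in SHEP, 3 fell with the WT label and 0 rose in edgeR. Among those that fell, SMPDL3A, a secreted phosphodiesterase, changed by -1.35 (SE 0.30) and MERTK, a receptor for the uptake of dead cells, by -0.81 (SE 0.28), with a list median of -0.67 and a median of all genes of -0.004. MERTK was called in 5 of 11 alternatives. It was lost with no count filter, in DESeq2, and on leaving out control replicate 1 or 2 or WT replicate 1 or 3 (adjusted p = 0.0593 to 0.209). SMPDL3A was also lower with WT than with 3A (-0.997, SE 0.31), but not without WT replicate 2 or 3 or 3A replicate 2 (edgeR adjusted p up to 0.075).

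With the WT label, where SREBF1 was lower, 3 of 12 tested lipogenic targets rose and 1 fell. ELOVL6, a fatty acid elongase, changed by 0.62 (SE 0.12), FADS1 by 0.34 (SE 0.10) and SCD5 by -0.55 (SE 0.12). The call of FADS1 was lost with library totals and without any of the no MYCN libraries or WT replicate 1 (edgeR adjusted p up to 0.0816). With library totals 1 rose and 1 fell, and 1 rose without no MYCN replicate 1 or 2 or WT replicate 1. With the 3A label, where SREBF1 was higher, 0 of the 12 rose in edgeR and 1 fell, ACLY, which makes acetyl-CoA from citrate (-0.65, SE 0.14). Between the forms 4 of 12 were higher with WT and 0 lower, led by ELOVL6 (0.57, SE 0.13), FADS1 (0.45, SE 0.10) and ACLY (0.57, SE 0.14). In the SREBP machinery, SREBF2, the paralog that drives cholesterol synthesis, was at 29.7 ± 0.987 CPM with 3A against 37.5 ± 0.451 without MYCN (-0.33, SE 0.12) and was 0.40 (SE 0.12) higher with WT than with 3A. The first of these calls was lost with no count filter and on leaving out any 1 of the 6 libraries (edgeR adjusted p = 0.0564 to 0.103), and the second without WT replicate 1 (0.081). MBTPS2, the site-2 protease that releases SREBP, fell with both labels (-0.38, SE 0.11 and -0.40, SE 0.11), the first lost without no MYCN replicate 1 or 2 or WT replicate 2 or 3 and the second without no MYCN replicate 1 or 2 or 3A replicate 2. ERLIN1 rose with WT (0.33, SE 0.09), not without no MYCN replicate 2, and was 0.38 (SE 0.09) higher with WT than with 3A, as was the site-1 protease gene MBTPS1 (0.39, SE 0.09).

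Receptors that take up lipoproteins changed in SHEP as well. SCARB1, the HDL receptor, rose with WT from 71.8 ± 6.27 to 123 ± 4.49 CPM (0.78, SE 0.10) and with 3A to 120.4 ± 18.8 CPM (0.75, SE 0.10). LRP1, a large endocytic receptor for APOE, fell with WT (-0.65, SE 0.18), not without WT replicate 2 or 3, and with 3A (-1.01, SE 0.18). LRP8 was higher with WT than without MYCN (0.66, SE 0.15) and than with 3A (0.86, SE 0.15). The proteoglycan HSPG2 fell with 3A (-0.75, SE 0.14) and was 0.87 (SE 0.14) higher with WT than with 3A. Of 9 tested receptors 2 rose and 1 fell with WT, 1 rose and 3 fell with 3A, and 2 were higher with WT than with 3A. 

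Among LXR partners and coregulators, 14 were tested in SHEP. With WT, TBL1X rose (0.81, SE 0.13) and GPS2, another corepressor subunit, fell (-0.63, SE 0.13), as did NCOA1 (-0.46, SE 0.15). With 3A 0 rose in edgeR and 3 fell, among them NCOA2 (-0.86, SE 0.22) and NCOA1 (-0.54, SE 0.15). Without no MYCN replicate 1 there were 0 falls in edgeR with 3A, and the replicate block gave 5. With WT, falls numbered 4 without WT replicate 1. Library totals as the scale gave 6 falls in place of 3 in this list with 3A, and 4 in place of 2 in the SREBP machinery. It gave 2 in place of 1 among other LXR targets, lipogenic targets, oxysterol genes and lipid exporters. With WT it gave 4 falls in place of 3 among other LXR targets. Between the forms 3 were higher with WT and 1 lower, with TBL1X at 0.87 (SE 0.13) and GPS2 at -0.45 (SE 0.13). The call of NCOA1 with WT ended on leaving out control replicate 1 or 2 or WT replicate 2 or 3, and that with 3A on leaving out control replicate 1 or 2 or 3A replicate 2. NCOA2 was lost without no MYCN replicate 1 or 3A replicate 3, and GPS2 between the forms without WT replicate 2 or 3A replicate 1 or 3. In the oxysterol list, HSD3B7 fell with 3A (-0.90, SE 0.27), a call lost without no MYCN replicate 2 or 3 or 3A replicate 2 or 3. Of the other lipid exporters, ABCA2 (-0.60, SE 0.17) and ABCA7 (-1.01, SE 0.32) fell and ABCA3 (0.84, SE 0.26) rose with WT, each lost without 2 or 3 of the 6 libraries (edgeR adjusted p up to 0.143). APOL6 fell with 3A (-0.70, SE 0.16), and ABCA5 (1.32, SE 0.32) and ABCA3 (1.06, SE 0.27) were higher with WT than with 3A.

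Besides APOC1, 11 neighbours start within 100 kb of APOE. Of these, 4 could be tested in IMR-32 and 2 were called, where 27.1% of all genes were. In each SHEP comparison 2 of 5 were called, where 22.2% of genes were with WT, 25.5% with 3A and 30.3% between the forms. In IMR-32, NECTIN2, a cell adhesion molecule 59.6 kb upstream (0.44, SE 0.07), and CLPTM1 48.8 kb downstream (0.28, SE 0.05) rose. TOMM40, the mitochondrial import channel that starts 15.2 kb upstream of APOE on the same strand, was at 79.4 ± 5.37 CPM in controls and 79.1 ± 0.907 CPM after depletion (-0.01, 95% interval -0.14 to 0.12). The apolipoprotein genes downstream stayed near 0, with APOC2 at 0 and APOC4 at 0.0327 CPM in the controls and both at 0.0806 CPM after depletion. BCAM, too low to test in IMR-32, held 0, 2 and 2 counts in the controls and 18, 6 and 4 after depletion. In SHEP, TOMM40 rose with WT (0.51, SE 0.09) and with 3A (0.58, SE 0.09), and RELB, an NF-kB subunit, rose with WT from 16.0 ± 1.65 to 34.3 ± 5.86 CPM (1.10, SE 0.15) and was 1.01 (SE 0.15) higher than with 3A. NECTIN2 fell with 3A (-0.35, SE 0.09), not without no MYCN replicate 2, and BCAM was lower with WT than with 3A (-0.83, SE 0.26), not without WT replicate 1 or 3A replicate 2.

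**Figure D5:**
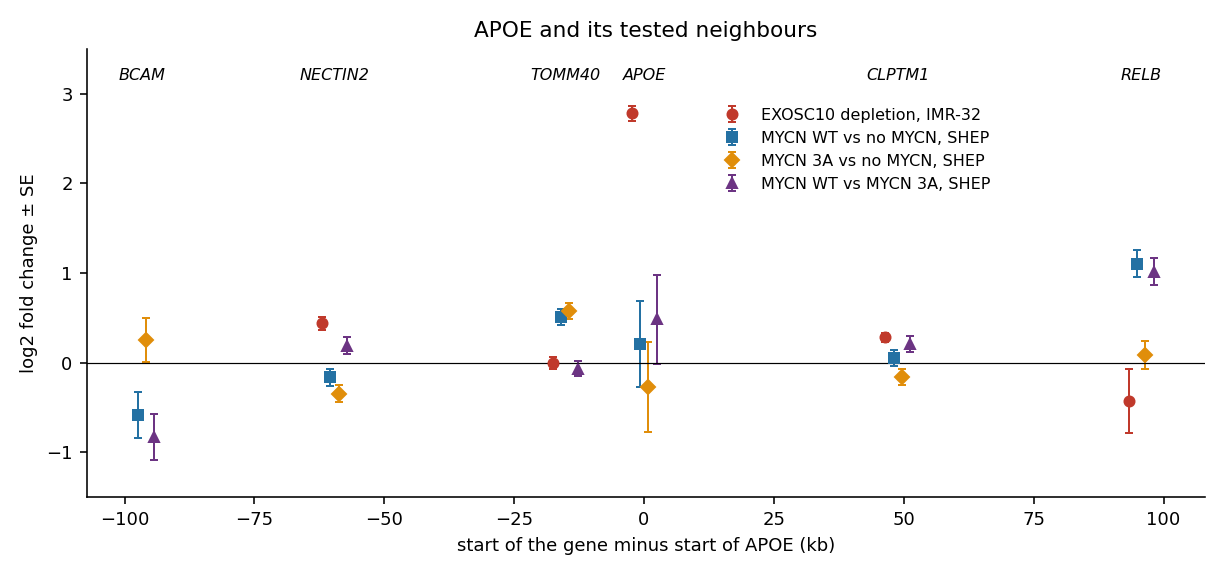
Log2 fold change ± SE of APOE and its 5 neighbours that could be tested in at least 1 table, by distance of their start from that of APOE in kb, points set slightly apart by comparison. On EXOSC10 depletion APOE stands at 2.78 and the tested neighbours between -0.43 and 0.44.

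By correlation of log2 CPM over the 15 libraries, the genes most like APOE among 11015 compared were PDE5A, SUN1, SLC4A2, ORMDL3 and ITM2C, with r from 0.981 to 0.983. These r describe libraries of 2 lines and rest largely on the gap between them. Within the 9 SHEP libraries, r was 0.16 to 0.60. PDE5A, a cyclic GMP phosphodiesterase, stood at 18.5 ± 1.01 CPM in IMR-32 controls, 77.3 ± 3.69 CPM after depletion and 2.41 ± 0.552 CPM in SHEP without MYCN. ORMDL3, a regulator of sphingolipid synthesis, stood at 53.5 ± 0.997, 92.0 ± 2.32 and 26.8 ± 2.67 CPM in the same order.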

How the data were processed

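The members and the gene lists were chosen with earlier results of these data known. Both deposited tables hold raw gene counts. The authors used STAR 2.7.10a and featureCounts 2.0.3 on hg19, per the submitters' processing notes, and the header of the SHEP table gives strand-specific counting in which a read over several genes counts for each. Settings of the IMR-32 table are not given in the sources used here. Even values made up 65.5 to 77.1% of counts from 1 to 10, and a count is a read end, not 1 molecule. The IMR-32 columns were matched to samples through their doxycycline or solvent name and replicate number. Samples of 4sU sequencing have control and shEXOSC10 arms with similar labels. That these columns are the RNA-seq libraries rests on the name of the table alone, and the fall of EXOSC10 bears only on which columns were treated. The 74 samples of other assays in the series were not analysed here.

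Genes passed filterByExpr (17103 in IMR-32, 14923 in SHEP), were scaled by TMM, and were tested with the robust quasi-likelihood F test of edgeR 4.0.16 in R 4.3.3, with Benjamini-Hochberg adjustment over all tested genes at 0.05 and all 9 SHEP libraries in a single fit. The alternatives were library totals as the scale, no filter, the replicate number as a block, only the groups compared, each library left out, and DESeq2 1.42.0. CPM per kb used the exon length of the table. Intervals are normal 95% intervals from the SE. The script was tested on simulated counts. No libraries of a group agreed within sampling noise. Named genes are all members, up to 3 called genes of smallest p from each pathway list and comparison (5 for other LXR targets), the genes that start within 100 kb of APOE and the 5 most correlated with APOE. ACACA, a lipogenic target, was not matched in the tables. Some genes that the rule would name are not reported here, although the counts of their lists include them.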

Additional observations from a re-analysis of the deposited data

How the results depend on the processing

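Calls over all genes stayed within 1.5 times of the main count except for 3A against no MYCN, where leaving out a library gave 2166 to 3616 calls against 3806, with 2166 without no MYCN replicate 1 and 2508 without replicate 2. Leaving out a library, members called numbered 5 to 6 on EXOSC10 depletion (main 7), 1 to 2 for WT against no MYCN (main 2), lower without no MYCN replicate 2 or 3 or WT replicate 2, and 1 to 3 for 3A (main 3), lowest without no MYCN replicate 2 or 3 or 3A replicate 2. With library totals as the scale, 35.1% of calls with WT and 29.6% with 3A were higher, against 49.3% and 49.7%, and the median log2 fold change of all genes with 3A was -0.14 against -0.04. Signs of members that were not called turned under some settings, and the cause was not tested. Leaving out a library, APOE ran from -0.058 to 0.59 with WT and from -0.54 to 0.10 with 3A, NR1H3 from -0.15 to 0.29 with 3A, and NR1H2 from -0.060 to 0.012 between the forms. On EXOSC10 depletion, NR1H2 ran from -0.030 to 0.11 on leaving out a library. With library totals NR1H3 was at -0.065 with 3A and NR1H2 at 0.0048 between the forms. Deviations of same-numbered libraries had r of 0.025 to 0.044 in IMR-32 and -0.033 to 0.138 in SHEP. Those of differently numbered libraries of other groups had r of -0.031 to -0.012 in IMR-32 and -0.134 to 0.062 in SHEP. The same-numbered r thus lay slightly higher in IMR-32 and overlapped the others in SHEP. Whether the numbers pair the libraries was not tested. The replicate block gave 5251, 4184, 4794 and 5414 calls against 4639, 3315, 3806 and 4527, and 7, 3, 3 and 1 called members against 7, 2, 3 and 1. Low counts limit APOE, APOC1, ABCA1 and ABCG1 in SHEP.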
